A study of Mus musculus with 6 samples.

Results

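Genes that copy DNA and fill in repaired strands were followed in the pancreas of Sox4 knockout mouse embryos. Members were the probes with 1 gene symbol in the platform annotation that names a part of the replication machinery (Mcm, Orc, Cdc6, Cdc7, Cdt1, Gins, polymerase, primase, Rfc, Rpa, Pcna and ligase genes), a supplier of nucleotides, a regulator of entry into S phase (cyclin E, E2f) or a repair factor (Msh, Rad, Xrcc). They were 55 of the 11023 genes so annotated, on 89 of the 21888 probes in the deposited table. A value on at least 4 of 6 arrays was needed for the test, and 88 member probes, covering all 55 genes, had one. The probe left out, Mcm8 ZX-00141M03, was measured on arrays 1 to 3 only, at -0.99, -0.08 and -0.14. Mcm2, Mcm3, Mcm5, Mcm6, Cdc45, Gmnn, Rrm1, Rrm2, Tk1 and Fen1 were not analysed here.

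The study asked which genes differ in expression between Sox4-/- embryos, homozygous for a knock-out of this SoxC transcription factor, and their wild-type littermates at embryonic day 12.5. Each of 6 arrays took both RNAs, and its value for a probe is a log2 ratio of the 2 channels, given here after the array's median was subtracted (centred log2 ratio). A value above 0 is read as higher in Sox4 KO than in Sox4 WT pancreas. That direction is only likely: it rests on the channel order (KO in channel 2) and the titles, and the sources used here state neither dyes nor direction. For arrays 1 and 2 the label adds that pancreases were pooled in 2 groups before RNA isolation and that the RNA was amplified. Strain, embryo numbers and whether arrays 3 to 6 used the same pools are not stated, so the arrays may be repeats of 1 KO and 1 WT pool and p-values may measure technical spread only. With each RNA in the same channel throughout, a dye bias of a probe and a difference between the RNAs cannot be told apart. In bulk RNA, fewer cells of a type and less RNA per cell cannot be told apart either, and a table of ratios holds no levels, so the tissue label could not be checked against the level of pancreatic markers.

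Some facts of the arrays bear on every value. Between 439 and 1654 probes per array had no value, and 40 to 257 more stood at the table's ceiling, a ratio of 1e+05, and were treated as missing. The median absolute deviation of the centred ratios, scaled to match the SD of a normal distribution, was 0.545 on array 2 and 0.27 to 0.442 on the others. Sox4 itself had centred means of -0.03 and -0.09 at its probes, neither past the test. The sources do not place these probes inside or outside the deleted stretch, so they check nothing. Some probes had ratios that, for over 50% of their arrays, equal a whole number up to 20 divided by another, within 0.0006 in log2. They made up 6 of the 88 member probes (6.82%) and 12% of all tested probes, and are called quotient-rich here. The 6 were a probe each of Gins3, Mcm8, Mcm10, Pole4, Rad51b and Rfc2.

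Replication begins when the origin recognition complex (Orc) marks origins and, with Cdc6 and Cdt1, loads the ring-shaped Mcm2 to Mcm7 helicase in G1. The kinase Cdc7, with Mcm10, Cdc45 and the GINS complex, then turns the loaded ring into a moving helicase. DNA polymerases alpha, delta and epsilon copy the strands behind it. Delta and epsilon bind the sliding clamp Pcna that the Rfc complex loads. Cyclin E and the E2F factors set the timing: activating E2Fs switch on many of these genes as a cell enters S phase. In the embryonic pancreas of this stage the epithelial progenitors divide, and the surrounding mesenchyme grows with them.

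The E2F consensus was looked for in the members' promoters, because it is the best-known shared control element of S-phase genes. The words searched, on both strands, were TTTCCCGC, TTTCGCGC, TTTGCCGC and TTTGGCGC, in RefSeq windows (GRCm38.p6) from 250 bases before to 50 after each start site. Windows were found for 44 member genes, and 14 of these (31.8%) held a word, against 3.87% of the 8472 genes with a tested probe and a window and 2.6% of all 27025 genes with a window. No window was found for Ccne2, E2f4, Gins1, Gins2, Gins4, Mcm4, Prim2, Rad21, Rad50, Rad51d and Rfc2. In Msh3 a pair of words on opposite strands overlapped. The 6 stretches below show a word before the start site, in capitals, with 60 bases in all: Cdc6 and Pole4 because they hold probes that passed the test in opposite directions, and Mcm7, Orc3, Gins3 and Msh5 as further licensing, helicase and mismatch genes. They lie at chr11:98907987-98908046 (plus strand) for Cdc6, chr6:82652875-82652934 (minus) for Pole4, chr5:138172015-138172074 (minus) for Mcm7, chr4:34614950-34615009 (minus) for Orc3, chr8:95633492-95633551 (plus) for Gins3 and chr17:35046654-35046713 (minus) for Msh5.
Cdc6: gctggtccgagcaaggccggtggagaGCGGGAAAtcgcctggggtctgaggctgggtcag
Pole4: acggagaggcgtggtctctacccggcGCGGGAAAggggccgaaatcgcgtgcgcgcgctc
Mcm7: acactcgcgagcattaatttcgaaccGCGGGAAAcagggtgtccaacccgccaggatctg
Orc3: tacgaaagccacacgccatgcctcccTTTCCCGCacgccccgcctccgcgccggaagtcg
Gins3: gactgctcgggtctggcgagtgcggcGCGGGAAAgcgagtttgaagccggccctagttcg
Msh5: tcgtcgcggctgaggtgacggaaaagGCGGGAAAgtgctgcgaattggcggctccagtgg
Counted from the start site, the word begins at -138 in Cdc6, at -43 in Pole4, -165 in Mcm7, -41 in Orc3 and Gins3 and -65 in Msh5. A match is a description of the letters and not a binding site.

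Few replication and repair probes passed the test, and the members' means spread about as widely as those of all probes. Of the 88 tested member probes, 3 passed the limma test at an adjusted p under 0.05 (3.41%), against 5.49% of all 21247 tested probes. How these shares compare depended on the fit: with the array set (arrays 1 and 2, or 3 to 6) as a term, 5 member probes passed (5.68%, against 3.27% of all), and with array weights 17 (19.3%, against 13% of all). The fit with the set term tested the average of the 2 set means, so arrays 1 and 2 together weighed as much as arrays 3 to 6. Leaving out any array but array 2 left 0 or 1 member probes and 10 to 45 probes in all. In the 6-array fit, a probe each of Cdc6 and Rpa1 was higher in Sox4 KO RNA (the share of all probes called above 0 was 1.96%) and a probe of Pole4 was lower (3.53% of all probes were called under 0). The member means had a median of 0.01, with quartiles of -0.22 and 0.25, against a median of 0.03 and quartiles of -0.15 and 0.25 over all tested probes. A total of 47 member means (53.4%) lay above 0, against 53.7% of all, and 11 (12.5%) were at least 0.5 in size, against 15.3% of all. At an unadjusted p under 0.05 there were 17 member probes above 0 and 14 under it, 35.2% of the members in all. Among all tested probes that share was 27.6%, with 13.6% above and 14% under 0. Without centring, 6 member probes passed above 0 and 1 under 0. Over all probes, 849 (4%) then passed above and 409 (1.92%) under 0, 5.92% in all, whereas centring gave 416 above and 750 under 0.

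**Figure D1:**
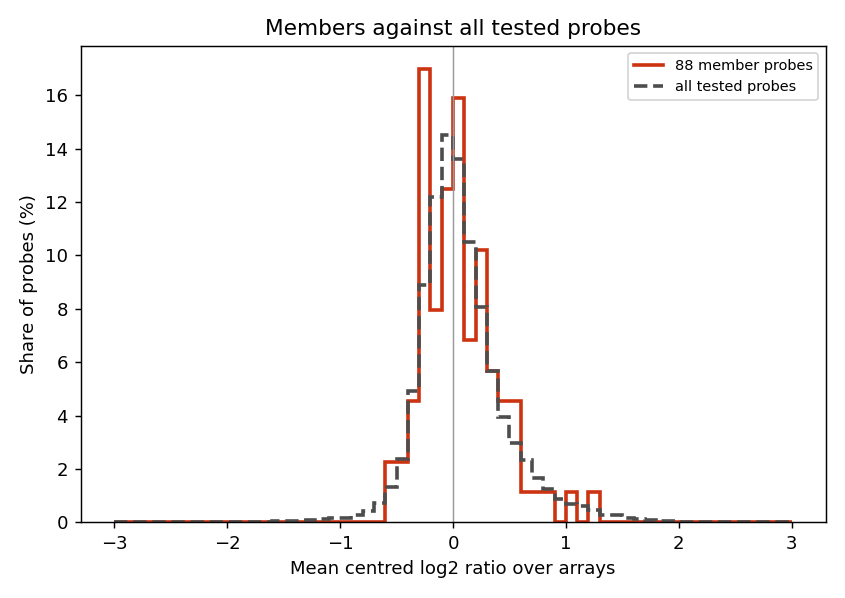
Histogram of mean centred log2 ratios (x axis, bins of 0.1; y axis, percent of probes) for the 88 member probes (solid line) and all 21247 tested probes (dashed line). Most of both lie close to 0, with the members' highest bin between -0.3 and -0.2: 70.5% of member means and 67.7% of all means were under 0.3 in size.

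The median of the members on each array was also close to that of all probes. It was 0.07, -0.01, -0.03, -0.03, -0.09 and -0.05 on arrays 1 to 6, where the median of all tested probes was between -0.004 and 0.001. Array 1 alone was above 0. All measured arrays lay on 1 side of 0 for 21 member probes, 10 above and 11 under, which is 23.9% of the members. Of all tested probes this held for 22.4%, 10.2% above and 12.3% under.

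**Figure D2:**
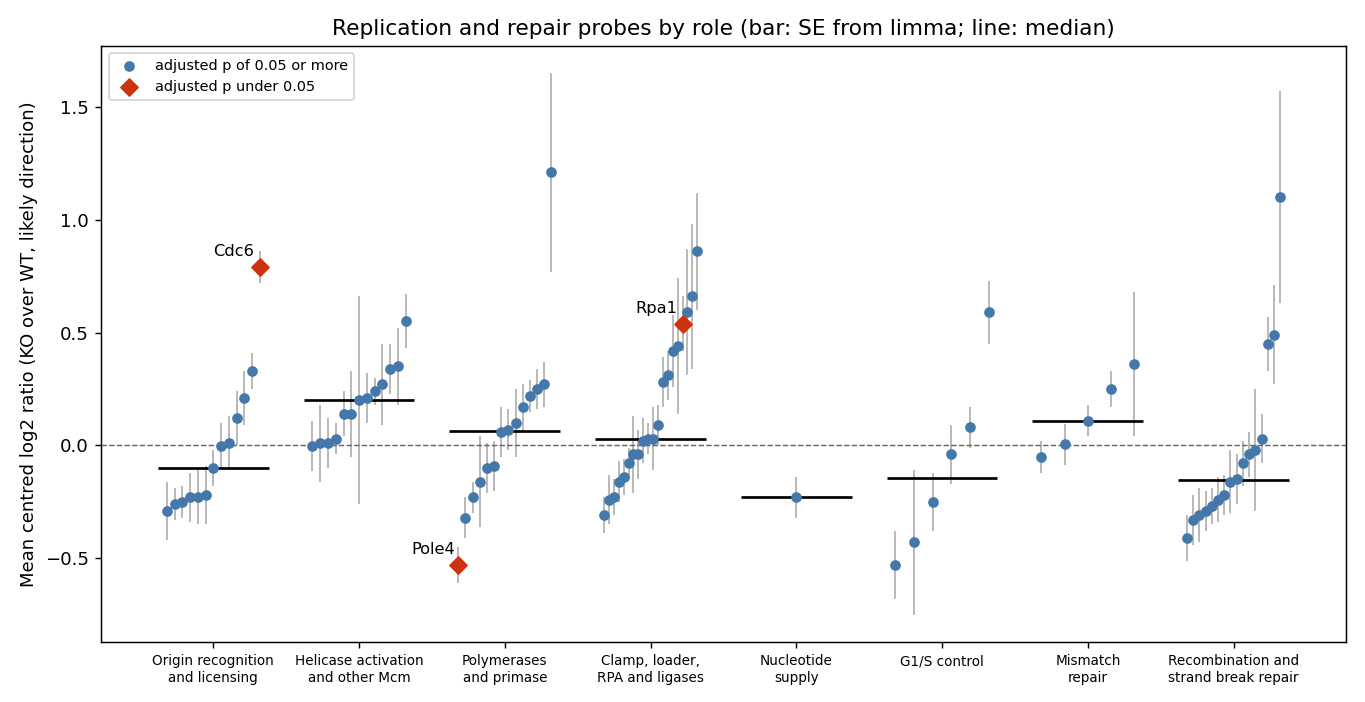
Mean centred log2 ratio (y axis) of each tested member probe, grouped by role (x axis), with the SE from limma as a bar and the group median as a line. Red diamonds mark the 3 probes past an adjusted p of 0.05 (Cdc6, Rpa1 and Pole4), and group medians run from -0.23 for the single nucleotide supply probe to 0.20 for helicase activation.

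Among the licensing genes, Cdc6 stood out as higher in Sox4 KO RNA while Orc and Mcm probes lay mostly a little under 0. Cdc6 ZX-00139I03 had centred log2 ratios of 0.68, 0.78, 0.99, 0.62, 0.89 and 0.75 on arrays 1 to 6. Every array was well above 0, and the mean of 0.79 ± 0.14 (SD, n = 6 arrays) is a 1.72-fold difference with an adjusted p of 0.0126. The second Cdc6 probe, ZX-00135B16, read 0.26, 0.11, 0.42, 0.21, 0.45 and 0.54, also above 0 on every array. Its mean was 0.33 ± 0.16 (n = 6) with an adjusted p of 0.0614, so it did not pass, and the 2 probes of the gene differed in size by 0.46. The mean over both, 0.56, passed when each gene was given 1 value (adjusted p 0.0218). The call at ZX-00139I03 was lost without array 1, 4, 5 or 6, where its mean was 0.81, 0.82, 0.77 or 0.79 and its adjusted p 0.0508, 0.0607, 0.0684 or 0.0656, and kept without array 2 or 3.

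Cdt1, the partner of Cdc6 in loading the helicase, had means of 0.21 ± 0.30, 0.12 ± 0.30 and -0.001 ± 0.25 at its 3 probes (n = 6 each), with 4 arrays above 0 and 2 under 0 at each. None passed. Mcm7, a subunit of the helicase ring, read -0.08, -0.18, -0.22, -0.26, -0.43 and -0.31, all under 0, with a mean of -0.25 ± 0.12 (n = 6) and an adjusted p of 0.087. Mcm4, also in the ring, had a mean of -0.10 ± 0.15. Orc6, the smallest origin recognition subunit, read -0.06, -0.35, -0.34, -0.18, -0.45 and -0.21, again on 1 side, with a mean of -0.26 ± 0.14 and an adjusted p of 0.0842. Orc3 had a mean of -0.23 ± 0.28. The largest fold among the Mcm and Orc probes of this group was 1.23, at the Orc4 probe ZX-00140J19.

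Orc4 was measured by 4 probes, and 3 of them followed each other over the arrays. Their means were -0.29 ± 0.34 (ZX-00140J19), -0.23 ± 0.29 (ZX-00133A08) and -0.22 ± 0.32 (ZX-00137I19), and on no array did they differ by more than 0.29. All 3 were lowest on array 2, at -0.92, -0.68 and -0.67, and above 0 on array 3, at 0.07, 0.14 and 0.23. The remaining probe, ZX-00138G03, was at 0.40 on array 2 and had a mean of 0.01 ± 0.30. None of the 4 passed the test, with adjusted p from 0.2 to 0.954.

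Genes that turn the loaded helicase on, with the Mcm8, Mcm9 and Mcm10 probes, had a median mean of 0.20 over 13 tested probes, and 12 of the 13 means were above 0. Of all tested probes, 53.7% had a mean above 0. None of the group passed the test, and 3 (23.1%) had an unadjusted p under 0.05, against 27.6% of all probes. Quotient-rich probes also numbered 3 (23.1%), against 12% of all. They were Gins3 (60% of its ratios), Mcm10 PX-00633N22 (66.7%) and Mcm8 PX-00626F17 (100%). The group's median was above 0 on every array, from 0.07 to 0.31. Gins4, a subunit of the GINS complex, was the steadiest, at 0.17, 0.21, 0.31, 0.15, 0.31 and 0.29, with a mean of 0.24 ± 0.07 (n = 6) and an adjusted p of 0.0707. Its other probe had a mean of 0.14 ± 0.23. The other GINS subunits were at -0.002 for Gins1, 0.03 and 0.21 for Gins2 and 0.14 for Gins3. Cdc7, the kinase that fires origins, had a mean of 0.01 ± 0.46.

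Mcm9, which works with Mcm8 in recombination repair, had usable values on arrays 1 to 4 only, at 0.29, 0.64, 0.81 and 0.46. Its mean of 0.55 ± 0.22 (n = 4) had an adjusted p of 0.0707. A ceiling ratio had been set to missing at this probe, and with the ceiling kept as a value its mean was 3.72 (adjusted p 0.425). The 3 tested Mcm8 probes had means of 0.34 ± 0.29 (n = 6), 0.27 ± 0.45 and 0.20 ± 1.24 (n = 5 each), the last of them with every ratio a quotient of small whole numbers. The last 2 had also lost a ceiling ratio, and with the ceiling kept their means were 2.97 and 2.89. The steadiest of these, ZX-00133F03, read 0.07, -0.06, 0.61, 0.29, 0.54 and 0.58, so it was near 0 on arrays 1 and 2 and above 0 on arrays 3 to 6. Mcm10, which helps to activate the helicase, had means of 0.35 ± 0.46 and 0.01 ± 0.28.

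Polymerase and primase genes showed no common direction, with 8 of 14 means above 0, a median of 0.06 and 1 probe past the test. That probe, PX-00627D22 of Pole4, a histone-fold subunit of polymerase epsilon, read -0.31, -0.33, -0.77, -0.50, -0.67 and -0.57. Every array was under 0, and the mean of -0.53 ± 0.18 (n = 6) is 1.44-fold lower in Sox4 KO RNA, with an adjusted p of 0.0315. The 4 probes of Pole4 disagreed. ZX-00133I08 was also under 0 on all arrays, at -0.20, -0.54, -0.01, -0.27, -0.45 and -0.44, with a mean of -0.32 ± 0.20 and an adjusted p of 0.0823. ZX-00137O01 had a mean of 0.27 ± 0.24 and ZX-00132L10 one of 1.21 ± 1.18 (n = 5), each above 0 on all but 1 measured array. A ceiling ratio had been set to missing at ZX-00132L10, and with the ceiling kept its mean was 3.74. All ratios of ZX-00132L10 were quotients of small whole numbers, as were 50% of those of ZX-00137O01, 16.7% of those of ZX-00133I08 and none of those of PX-00627D22. As 1 value per gene, Pole4 was at 0.10 with an adjusted p of 0.605. The call at PX-00627D22 was kept without array 2 and lost without array 1, 3, 4, 5 or 6, at means of -0.57, -0.48, -0.53, -0.50 or -0.52 and adjusted p from 0.0651 to 0.0972.

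The other polymerase epsilon subunits had means of 0.25 ± 0.20 and 0.10 ± 0.39 for Pole2 and 0.17 ± 0.25 for Pole3, which pairs with Pole4. Among the subunits of polymerase delta, Pold4 read -0.35, -0.14, -0.43, -0.12, -0.12 and -0.22. All arrays were under 0, with a mean of -0.23 ± 0.13 and an adjusted p of 0.106. Pold3 had means of 0.22 ± 0.13 and -0.16 ± 0.55 at its probes, and Pold2 one of 0.07 ± 0.21. Primase and the alpha polymerase, which start each new strand, were close to 0: Prim1 at -0.09 ± 0.27, Prim2 at -0.10 ± 0.26 and Pola2 at 0.06 ± 0.26. No delta, alpha or primase probe passed.

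Of the genes for the clamp, its loader, the single-strand binding protein RPA and the ligases, Rpa1 passed at 1 of 20 probes. RPA has 3 subunits, and their probes took different sides. Rpa1 ZX-00145F08, for the largest subunit, read 0.40, 0.83, 0.43, 0.97, 0.41 and 0.22, all above 0, with a mean of 0.54 ± 0.29 (n = 6), a 1.46-fold difference and an adjusted p of 0.0472. Its second probe, PX-00624H24, was above 0 on 5 of 6 arrays, with a mean of 0.31 ± 0.26 and an adjusted p of 0.125. As 1 value per gene, Rpa1 was at 0.42 with an adjusted p of 0.0486. The call at ZX-00145F08 was lost whichever array was left out, with means of 0.57, 0.49, 0.57, 0.46, 0.57 and 0.61 without arrays 1 to 6 in turn and adjusted p from 0.0691 to 0.11. It was also lost with the array set as a term, at a mean of 0.56 and an adjusted p of 0.064.

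Rpa2, the middle subunit, had probes on opposite sides. PX-00628B09 read 2.17, 1.12, 0.52, 0.11, 0.33 and 0.89, with a mean of 0.86 ± 0.74, while ZX-00137C11 read -0.27, -0.07, -0.54, -0.25, -0.18 and -0.09, with a mean of -0.23 ± 0.17. The arrays did not overlap between these probes of 1 gene, and neither probe passed (adjusted p 0.1 and 0.129). With the array set as a term, PX-00628B09 passed, with a mean of 1.05 and an adjusted p of 0.0465. Rpa3, the small subunit, was under 0 on every array at PX-00634A21, at -0.18, -0.60, -0.17, -0.14, -0.42 and -0.36, with a mean of -0.31 ± 0.18 and an adjusted p of 0.078. Its other probes had means of -0.16 ± 0.18 and 0.02 ± 0.23.

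**Figure D3:**
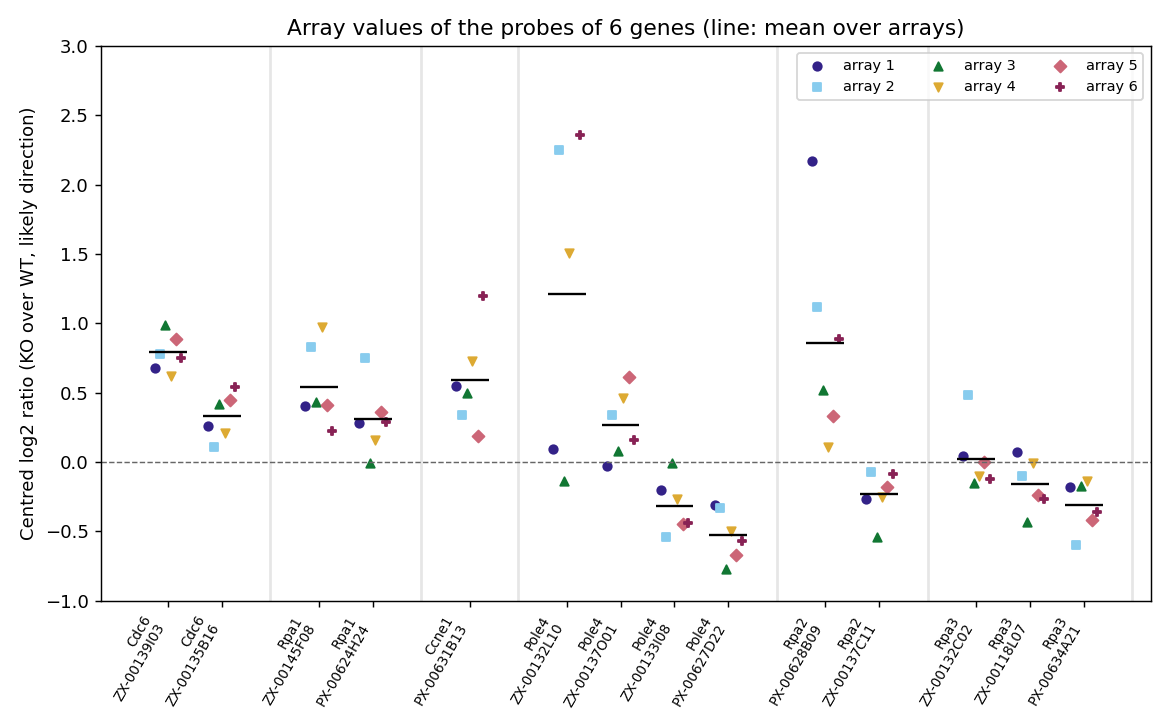
Centred log2 ratio on each array (y axis; colour and shape give the array, the line the mean) for every probe of Cdc6, Rpa1, Ccne1, Pole4, Rpa2 and Rpa3 (x axis). Both Cdc6 probes lie above 0 on all 6 arrays, while the means of the 4 Pole4 probes run from -0.53 to 1.21 and those of the 2 Rpa2 probes are -0.23 and 0.86.

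Pcna, the sliding clamp and a usual mark of S phase, had means of 0.03 ± 0.12, -0.04 ± 0.29, -0.14 ± 0.17 and -0.24 ± 0.28 at its 4 probes, with adjusted p from 0.211 to 0.84. The lowest, ZX-00140M12, read 0.27 on array 1 and was under 0 on the other 5 arrays. Rfc2, a subunit of the clamp loader, had 4 probes with means from -0.08 to 0.59. The highest, ZX-00137O06, read 1.27 and 1.75 on arrays 1 and 2 against 0.27, 0.24, -0.38 and 0.39 on arrays 3 to 6. Rfc5 had means of 0.42 ± 0.38 and 0.44 ± 0.79 (n = 5 each) and Rfc3 one of -0.04 ± 0.42 (n = 5). A ceiling ratio had been set to missing at Rfc3, and with the ceiling kept its mean was 2.69. The ligase that joins Okazaki fragments, Lig1, was at 0.09 ± 0.21. Lig3, used in single-strand break and mitochondrial repair, had a mean of 0.66 but ranged from -0.61 to 1.45, with an adjusted p of 0.23. Apart from Rpa1, no probe of these genes passed in the 6-array fit. With the array set as a term, Rfc2 ZX-00137O06 passed (mean 0.82, adjusted p 0.0456), as did Rpa2 PX-00628B09, and Rpa1 did not.

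Tyms, which makes thymidylate for DNA, was the nucleotide supply gene measured. It read -0.22, 0.09, -0.46, -0.18, -0.32 and -0.28, under 0 on all arrays but array 2, with a mean of -0.23 ± 0.18 and an adjusted p of 0.144.

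Of the genes that control entry into S phase, none of 6 probes passed (2 at an unadjusted p under 0.05), and cyclin E1 and the E2f probes lay on opposite sides of 0. Ccne1, the cyclin E that drives Cdk2 at the G1/S boundary, read 0.55, 0.34, 0.50, 0.73, 0.19 and 1.20. All arrays were above 0, and its mean of 0.59 ± 0.35 (n = 6) had an adjusted p of 0.0558. The related Ccne2 had means of 0.08 ± 0.21 and -0.04 ± 0.33. E2f8, an atypical E2F that represses S-phase genes, read -0.28, -1.32, -0.30, -0.30, -0.55 and -0.43, all under 0, with a mean of -0.53 ± 0.40 and an adjusted p of 0.0858. Without array 2, which held the lowest value, its mean was -0.37 and it passed, with an adjusted p of 0.0451 in a range of 0.0339 to 0.391 over its alternatives. The activator E2f1 read 0.10, -0.74, -0.06, 0.01, -0.44 and -0.37, with arrays on both sides and a mean of -0.25 ± 0.32. E2f4, a repressor of resting cells, had a mean of -0.43 ± 0.90 that rested on -2.24 on array 6, since the other arrays lay between -0.16 and 0.18.

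Mismatch repair genes had 4 of 5 means above 0, a median of 0.11 and none past the test (1 at an unadjusted p under 0.05). Msh6, which takes part in finding single mismatches, read 0.40, 0.50, 0.03, 0.24, 0.14 and 0.17. It was above 0 on every array, with a mean of 0.25 ± 0.18 and an adjusted p of 0.121. Msh3, which takes part in finding small loops, had means of 0.11 ± 0.13, with values of 0.09, 0.27, 0.23, -0.08, 0.13 and 0, and -0.05 ± 0.13. Msh4 and Msh5, known for their part in meiotic crossovers, had means of 0.005 ± 0.21 and 0.36 ± 0.90. Msh5 read 0.09, -0.33, 2.06, 0.32, -0.39 and 0.40, so its mean rested on array 3.

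Recombination and strand break repair genes lay mostly under 0, with 12 of 16 means under it and a median of -0.16, but none passed the test. Of all tested probes, 46.3% had a mean under 0. An unadjusted p under 0.05 was found at 6 of the 16 (37.5%), 5 under and 1 above 0, against 27.6% of all probes. Their median was under 0 on all arrays, from -0.34 to -0.01. Xrcc4, the partner of the ligase that joins broken ends, read -0.16, -0.79, -0.20, -0.33, -0.50 and -0.50. All arrays agreed in side, and its mean of -0.41 ± 0.23 had an adjusted p of 0.0606. Xrcc5, the Ku80 subunit that holds broken ends in the same pathway, read 0.30, -0.06, 0.78, 0.47, 0.50 and 0.71, with a mean of 0.45 ± 0.30 and an adjusted p of 0.0743. These end-joining genes therefore took opposite sides, with Xrcc4 under 0 on 6 arrays and Xrcc5 above 0 on 5.

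Xrcc3, Rad51b and Rad51d, which assist strand exchange, were all under 0 in their means. Xrcc3 read -0.08, -0.24, -0.14, -0.28, -0.56 and -0.32, with a mean of -0.27 ± 0.17 and an adjusted p of 0.0961. Rad51b, a quotient-rich probe, had a mean of -0.22 ± 0.21 and Rad51d means of -0.29 ± 0.20 and -0.02 ± 0.75. Rad51ap1, which also assists strand exchange, had means of -0.33, -0.31, -0.15 and 0.03 at its 4 probes. Rad54l, a motor protein of strand exchange, was at 0.49 ± 0.60, and Rad52, an annealing factor, at 1.10 ± 1.25 (n = 5), the highest and most variable of the group. Rad50, of the break-sensing Mre11 complex, was at -0.24 ± 0.25, Rad18, which marks Pcna at stalled forks, at -0.16 ± 0.37, the excision repair factor Rad23b at -0.08 ± 0.24 and the cohesin subunit Rad21 at -0.04 ± 0.22.

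Different probes of 1 gene could fall on different sides of 0. Of 20 member genes with several tested probes, 9 had all means on 1 side of 0 and 11 had means on both sides. For several of the 11 the mean on the other side was close to 0, as for Cdt1 (-0.001), Orc4 (0.01), Rpa3 (0.02), Pcna (0.03) and Rad51ap1 (0.03). The share over all genes with several probes was not computed. The widest spans were 1.74 for Pole4, 1.09 for Rpa2 and 0.67 for Rfc2, and the narrowest was 0.02 for Rfc5. With 1 value per gene, 2 of the 55 genes passed, Cdc6 and Rpa1, both above 0. Of all 10818 genes, 5.82% passed, 2.36% above and 3.47% under 0.

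Over all tested probes, arrays correlated more within than between the sets of arrays 1 and 2 and arrays 3 to 6. Spearman's rho was 0.52 between arrays 1 and 2, 0.44 to 0.58 among arrays 3 to 6 and 0.05 to 0.32 between the sets. Over the member probes these ranges overlapped, with 0.53 between arrays 1 and 2, 0.39 to 0.68 among arrays 3 to 6 and 0.11 to 0.59 between the sets. The points are probes on shared arrays and not replicates, so these values only describe the arrays. A difference between the sets passed the limma test at 0 of 88 member probes and 0 of all 21230 probes that could be fitted (0% called). At an unadjusted p under 0.05 it was found at 14 member probes, 15.9% of them against 15.4% of all. The largest such differences among the members were at Rfc2 ZX-00137O06, 1.51 in arrays 1 and 2 against 0.13 in arrays 3 to 6 (difference 1.38 ± 0.27 SE), Rpa2 PX-00628B09, 1.64 against 0.46, and Rad54l, 1.18 against 0.14. The probes called over 6 arrays had means on the same side in both sets: Cdc6 ZX-00139I03 was at 0.73 and 0.82, Rpa1 ZX-00145F08 at 0.62 and 0.51, and Pole4 PX-00627D22 at -0.32 and -0.63. With the set as a term, Cdc6 and Pole4 kept their calls (adjusted p 0.0308 and 0.0415) and Rpa1 lost its call. Rfc2 ZX-00137O06, Rpa2 PX-00628B09 and Rad54l (0.66, adjusted p 0.0497) gained one. These are the probes named above for the largest set differences, and their means were smaller in arrays 3 to 6. That fit weighs both sets equally, whatever their number of arrays. No member probe passed in arrays 1 and 2 alone (0% of all probes) or in arrays 3 to 6 alone (0.0629%).

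**Figure D4:**
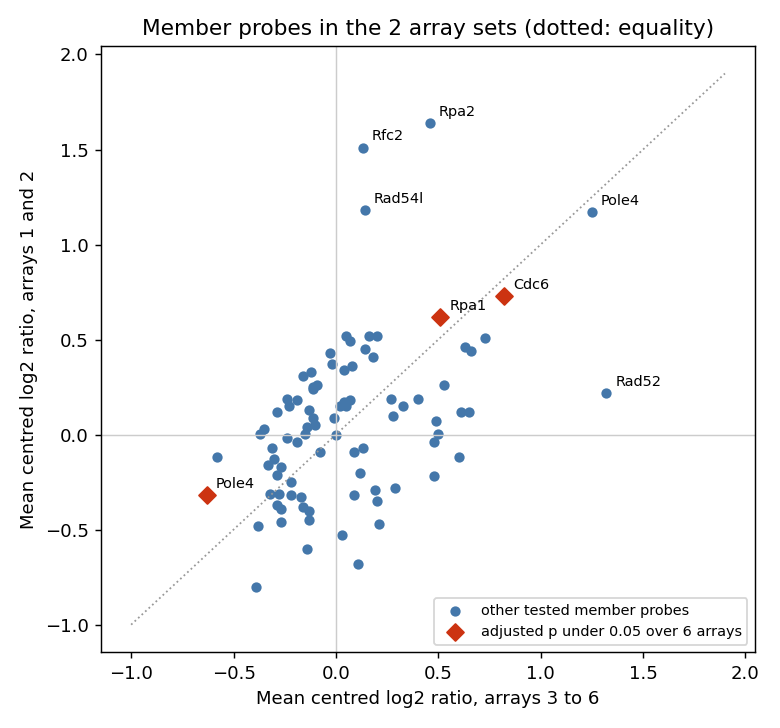
Mean centred log2 ratio of each tested member probe in arrays 1 and 2 (y axis) against arrays 3 to 6 (x axis). Red diamonds are the 3 probes called over 6 arrays and lie near the dotted line of equality, while Rfc2 (1.51 against 0.13), Rpa2 (1.64 against 0.46) and Rad54l (1.18 against 0.14) lie far above it.

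Members with and without the E2F word in the promoter windows were set side by side. The 14 genes with a word had gene means with a median of 0.11, from -0.25 to 0.56, and 11 of them were above 0. The 30 genes with a window and no word had a median of -0.04, from -0.53 to 1.10, with 15 above 0. The ranges overlap almost whole, and Cdc6 (0.56) and Mcm7 (-0.25), which both carry GCGGGAAA upstream as printed above, mark the upper and lower ends of the first group. Rpa1 and Ccne1 had a window without a word.

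Other genes of DNA replication, repair and S-phase control gave 5 called genes, all above 0, of 45 measured. Their 76 probes had a median mean of 0.04, and 6.58% of them passed above 0, against 1.96% of all probes. None passed under 0, against 3.53% of all. In either direction, 5.49% of all probes passed. Of the 76 means, 43 were above and 33 under 0. Probes under 0 fell just short of the threshold at Asf1b (-0.35, limma adjusted p 0.0502), Dscc1 (-0.29, 0.0549) and Dtl (-0.36, 0.0575). Another Dtl probe fell just short above 0 (0.40, 0.0567). The called probes were those of Bard1 (1.01 ± 0.27, n = 4), the partner of Brca1, Uhrf1 (0.53 ± 0.24), which guides DNA methylation at forks, Rnaseh2c (0.49 ± 0.21), a subunit of RNase H2, Tfdp1 (0.55 ± 0.27), the dimer partner of E2Fs, and Dut (0.34 ± 0.12), which removes dUTP. Their adjusted p ran from 0.0351 to 0.0464. Every Bard1 ratio was a quotient of small whole numbers. Other Uhrf1 probes had means of 0.22 and 0.13, and other Dut probes 0.45, 0.37 and -0.05. The proliferation marker Mki67 had a mean of 1.26 ± 0.71 (adjusted p 0.043), with 66.7% of its ratios such quotients, and the cell cycle inhibitor Cdkn1a was under 0 at both probes, at -0.74 ± 0.12 and -0.84 ± 0.36 (adjusted p 0.0126 and 0.0327).

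Markers of other cell types were read beside these values. A gene is counted as called here if at least 1 of its probes passed. Of all probes, 1.96% were called above 0 and 3.53% under it. Of 8 measured liver genes, 6 were called under 0 and none above. Their 14 probes (64.3% called) had a median of -0.84, with array medians from -1.01 to -0.51. Of 3 neuronal genes, Tubb3 and Elavl4 were called above 0 at 1 probe each, with a median of 0.34 over 9 probes (22.2% called). The other probes of these 2 genes had means from -0.05 to 0.65, and 50% of the ratios of the called Elavl4 probe were quotients. Of 6 mesenchyme genes 1 was called under 0 (median -0.08, 9.09% of 11 probes called). Of 6 erythroid genes 1 was called above 0 (median 0.01, 1.85% of 54 probes). Of 7 pancreas progenitor genes, Nr5a2 and Cpa1 were called under 0 (median -0.06, 33.3% of 12 probes). Dividing cells of any of these tissues use the replication genes, and the part of cell makeup in the member values was not tested.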

How the data were processed

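The authors deposited log2 ratios of the 2 channels of 6 spotted arrays. The sources used here name no scanner, background correction or normalization. The log2 base follows from the ceiling, log2 of 1e+05, which was set to missing. Each array was centred on its median. Every probe with at least 4 values was tested against 0, two-sided, by limma 3.58.1 (R 4.3.3; an intercept fitted with lmFit, then eBayes). P-values were adjusted by Benjamini-Hochberg over all 21247 tested probes, with 0.05 as the threshold. The method was checked on simulated data, normal noise with each probe's observed SD, drawn independently for each array. Changes were put into 67 probes at a size of 0.5, 67 at 1 and 66 at 2. Of the log2 changes put in, 20.9% were recovered at a size of 0.5, 70.1% at 1 and 81.8% at 2. The arrays of the real data correlate within sets and more of their probes are called, so recovery there may differ. Recovery of changes under 0.5 was not tested, and 70.5% of member means were under 0.3 in size. Plots used matplotlib 3.10.9. Intensities were not used here, so signal over background is unknown. Precision is limited by the number of arrays.

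Members, lists, alternatives and the naming rule were chosen with earlier results of these data known. Array values are given for the probes past the threshold and the 3 smallest p in each role group, means for the extreme probes of each group, other probes of a called gene and the main S-phase genes. What is given beyond this rule was chosen after its values were seen. This covers the means of other members and the array values of Mcm7, Mcm8 ZX-00141M03, Rpa2 ZX-00137C11 and Rfc2 ZX-00137O06. It also covers single array values of Orc4, Pcna and E2f4, the range of Lig3 and the values of the Asf1b, Dscc1 and Dtl probes. The symbols of all 89 member probes were the same in the RefSeq table of GRCm38.p6. Of the probes, 18388 had 1 symbol, 66 several and 3434 none.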

Additional observations from a re-analysis of the deposited data

Results flagged for a closer look

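Each of the 88 tested member probes and 10 array medians was searched for a single array whose gap to its neighbour took up a large share of the range. The share had to pass a limit at which chance flags about 1 in 20. A gap that took up only slightly more than the rest of the range, as at Prim1, did not pass it. Such an array was found at 8 probes and no median: 3 on array 2, which has the widest spread, 2 each on arrays 3 and 5, and 1 on array 6. No share over all tested probes stands beside this count, so it is not read as a trait of the members.

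E2f8 PX-00616M10 had -1.32 on array 2, while its other arrays ran between -0.55 and -0.28. Orc4 ZX-00140J19 was at -0.92 on array 2, against -0.29 to 0.07, and Rpa3 ZX-00132C02 at 0.48 on array 2, against -0.15 to 0.04. Msh5 PX-00625J19 was at 2.06 on array 3, against -0.39 to 0.40, and Rad51d ZX-00126M18 at 1.45 on array 3, against -0.77 to -0.13. Rad52 PX-00632L07 was at 3.26 on array 5, against 0.22 to 1.04, and Rfc5 ZX-00138E02 at 1.80 on array 5, against -0.14 to 0.34. E2f4 ZX-00127J16 was at -2.24 on array 6, against -0.16 to 0.18. None of these probes passed the test over 6 arrays.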

How the results depend on the processing

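Member probes called above and under 0 numbered 2 and 1 (3.41% of those tested), with 1166 probes called in all (5.49%). They numbered 4 and 1 (5.68%, against 695 or 3.27% of all) with the array set as a term. With array weights they numbered 10 and 7 (19.3%, against 2752 or 13%). Scale normalization gave 4 and 4 (9.09%, against 1786 or 8.41%) and quantile normalization 5 and 3 (9.09%, against 1719 or 8.09%). Without centring there were 6 and 1 (7.95%, against 1258 or 5.92%). Values on all 6 arrays gave 4 and 2 (7.59%, against 1678 or 9.23%). Leaving out quotient-rich probes gave 4 and 2 (7.32%, against 1613 or 8.63%). They numbered 1 and 1 with the ceiling kept as a value (2.27%, against 1112 or 5.19%). At least 2 arrays also gave 1 and 1 (2.25%, against 1029 or 4.71%). Tested against a change of 0.2 they numbered 1 and 0 (1.14%, against 37 or 0.174%). One value per gene gave 2 and 0 (3.64%, against 630 or 5.82%). Robust eBayes gave 2 and 1 (3.41%, against 1070 or 5.04%). Arrays 3 to 6 alone gave 0 and 0 (0%, against 13 or 0.0629%). Arrays 1 and 2 alone gave 0 and 0, with 0 probes called in all and 2953 at an unadjusted limma p under 0.05. With each array left out they ranged from 0 to 3 above and 0 to 2 under 0, with 10 to 1072 calls in all: 18, 1072, 45, 11, 10 and 13 without arrays 1 to 6. The members' median was 0.12 without centring, where that of all probes was 0.13. The updated symbols gave the same members. The called Cdc6, Pole4 and Rpa1 probes passed under 13, 11 and 6 of 19 alternatives. Of the uncalled probes, 6 passed under at least 3 alternatives. Cdc6 ZX-00135B16 passed under 7 of 19, Ccne1 and Xrcc4 under 5 of 19 each. E2f8 and Gins4 ZX-00141A04 passed under 3 of 19 each and Mcm9 under 3 of 13. No call changed sign, and 66 of the 85 uncalled probes passed under no alternative. The cause of these changes was not tested. No paired analysis was possible because the arrays form 1 group and each ratio already holds both RNAs.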
